A study of Mus musculus with 14 samples.

Results

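The genes described are 10 that encode heat shock chaperones, followed in the liver of CD-1 mice from 3 wk to 8 wk of age. They were listed by symbol (Hspa1a, Hspa1b, Hspa8, Hspa5, Hsph1, Dnajb1, Hsp90aa1, Hsp90ab1, Hspb1 and Hspd1), and their probes were found through the RefSeq accessions on the array. Probes were found for 9 of the 10 genes, of 19751 genes that could be named in this way. Hspa1b was matched by no accession, and it has no value here.

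Liver RNA came from male (M) and female (F) CD-1 mice whose livers were taken at 3, 4 or 8 wk, without any treatment or genetic change. Each of the 6 groups had 2 RNA pools, of 5 mice at 3 wk and of 6 mice at 4 and 8 wk. Pools were hybridized against each other on 14 Agilent 2-colour arrays in 7 comparisons: male over female at each age (M3/F3, M4/F4 and M8/F8) and 8 wk over the younger age within each sex (M8/M3 and M8/M4 in male, F8/F3 and F8/F4 in female liver). Every comparison was run on a pair of arrays with exchanged dyes, 1 for each pair of pools, so that an array is a biological replicate of pooled mice, not of single mice, and the 2 arrays limit the precision.

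Chaperones bind unfolded or partly folded proteins and keep them from aggregating. Hsp70 proteins do so in cycles of ATP hydrolysis, which J proteins start and nucleotide exchange factors end, and Hsp90 proteins take over many of the clients. Small heat shock proteins hold unfolded chains without using ATP, Hsp60 folds proteins inside mitochondria and BiP serves the endoplasmic reticulum (ER), which in hepatocytes makes most plasma proteins. Many cytosolic chaperone genes are switched on by heat shock factor 1 (HSF1), and ER chaperone genes by the unfolded protein response.

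All 8 hepatocyte markers examined (such as albumin) were well above background in all 28 channels of the 14 arrays. Between 55.2% and 77.2% of the spots of a channel were well above background, and no spot was saturated. The Y-linked genes Ddx3y, Uty and Eif2s3y were up regulated and Xist was down regulated in male over female liver at all 3 ages, as the labelled dyes require. The 14 arrays lay on 4 slides scanned on 2 days, with the 3 sex comparisons and M8/M3 on the first day and the other age comparisons on the second. Comparisons of a replicate reused the same pools, so values of different comparisons that share a group are not independent of each other.

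Of the 9 chaperone genes measured, 5 were lower at 8 wk than at 3 wk in male and in female liver (Hspa8, Hspa5, Hsph1, Dnajb1 and Hsp90aa1), while the small heat shock protein gene Hspb1 was up regulated, and more so in male liver. Hspa1a was called higher in male liver at 8 wk, and also at 4 wk, a call that was lost in 17 of 29 alternatives. Ratios are given on the log2 scale as male over female or 8 wk over the younger age. To be called, a gene needed an adjusted p below 0.05 in limma, a change of over 1.5-fold in either direction, and a signal well above background on both arrays for 1 or both of the groups. By this criterion 1 or more of the 7 comparisons called 7 of the 9 genes with a probe, against 23.1% of all named genes tested. The exceptions were Hsp90ab1 and Hspd1.

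In M8/M3, 5 genes were called lower, where 10.0% of all genes were, and 1 was called higher, where 7.80% were. In F8/F3, 5 were called lower against 6.64% of all genes and 1 was called higher against 5.08%. M8/M4 had 3 genes called lower against a background of 6.37% and 2 called higher against 4.42%. F8/F4 had 1 gene called lower against 3.73% and 1 called higher against 2.28%. The median log2 ratio of the 9 genes was -0.73 in M8/M3, -0.66 in F8/F3, -0.32 in M8/M4 and -0.12 in F8/F4, while the median of all genes tested was 0.01 in M8/M3 and 0.02 in the others.

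Few of the genes differed between male and female liver. In M3/F3 none was called in limma, none had an unadjusted p below 0.05, none was called by error-weighted averages, and 0.517% of all genes were called in either direction. Here and below, a call by error-weighted averages needed an unadjusted p below 1e-04 and over 1.5-fold, not the adjusted p used in limma. In M4/F4, 1 gene was called higher in male liver, where 0.612% of all genes were. M8/F8 had 2 genes called higher in male liver against 2.66%. None was called lower in M8/F8, where 3.74% of all genes were. Hspa8 was lower there with an adjusted p of 0.00723 in limma, and its brightest probe missed the fold criterion alone. The mean of all its probes was called (log2 -0.65, adjusted p = 0.000891). Dnajb1 was lower at an unadjusted p below 0.05 only.

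**Figure D1:**
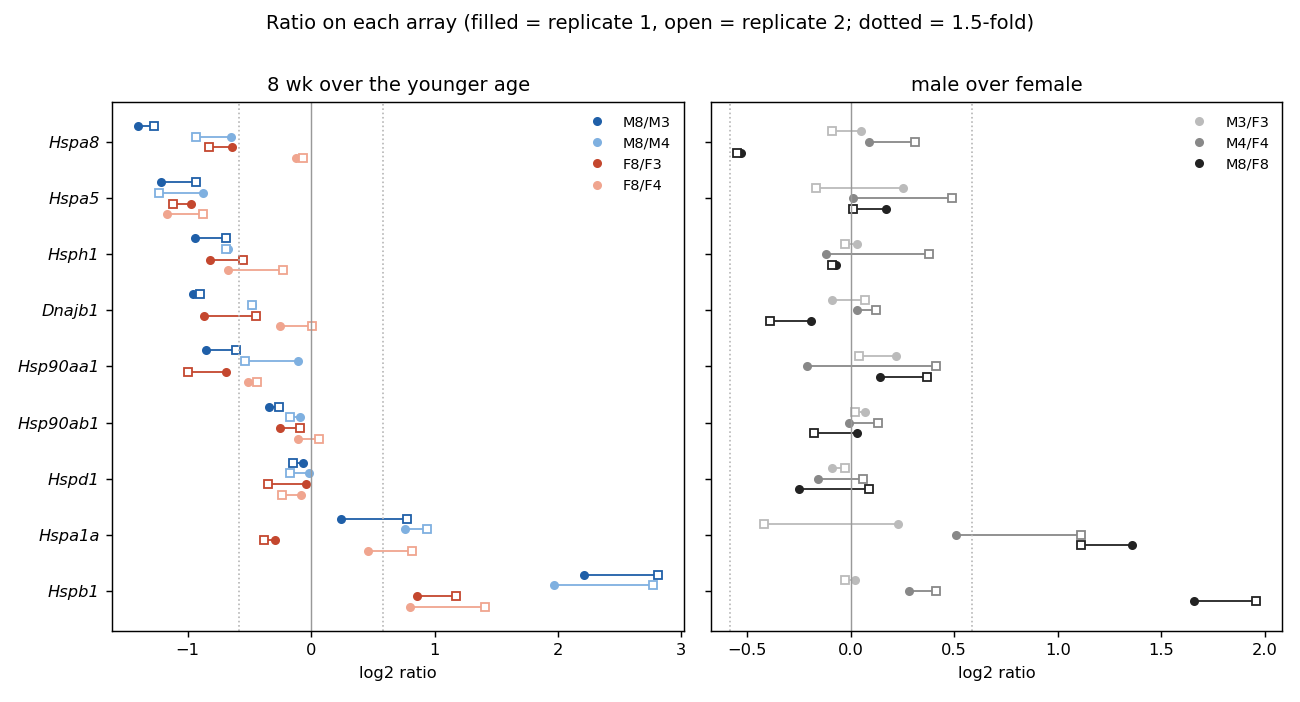
Log2 ratio of each chaperone gene on each array, with 8 wk over the younger age on the left and male over female on the right; filled circles are replicate 1, open squares are replicate 2, a line joins both, and dotted lines mark a 1.5-fold change. Both arrays of Hspa5 lie below 0 in all 4 age comparisons, and those of Hspb1 lie above 0, with 2.21 and 2.81 in M8/M3.

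Markers of other cells changed as well, and in whole liver RNA fewer cells of a type and less RNA per cell cannot be told apart. All 10 dividing cell markers were called lower in each of the 4 age comparisons, and their median log2 ratio from 3 wk was -3.74 in male and -3.21 in female liver. Their summed signal ranged from 15000 to 23000 over the channels of 3 wk male liver and from 795 to 1770 at 8 wk, and from 10300 to 23600 and 927 to 2200 in female liver. Aurkb was well above background in no 8 wk channel of either sex. All 5 neutrophil markers were called lower in M8/M3 and F8/F3. Their summed signal was 3420 to 5530 in M3, 971 to 1450 in M8, 7330 to 14700 in F3 and 1270 to 2290 in F8, and Ngp was well above background in no M8 channel. Among the hepatocyte markers, Ahsg (fetuin-A) was called lower in all 4 age comparisons, with log2 ratios of -1.25 from 3 wk and -1.07 from 4 wk in male and -0.70 and -0.71 in female liver. Alb was called lower in male liver from both ages (-0.71 and -0.68) and Trf from 3 wk (-0.64), and the other 5 hepatocyte markers were not called. Of the 6 Kupffer cell markers, Marco was called lower in all 4 age comparisons (-2.20 to -1.28) and Adgre1 in both of male liver (-0.86 and -0.92). The erythroid markers Slc4a1 and Epb42 were called lower in all 4 age comparisons, as were 3 of 6 mesenchymal markers, while the erythroid marker Alas2 was called higher in M8/M3 and M8/M4. Of 6 endothelial markers Lyve1 was called lower in M8/M3, M8/M4 and F8/F3 (-1.2, -0.85 and -0.94). Of 5 bile duct markers Krt7 was called lower in M8/M3, Krt19 in both male age comparisons and Sox9 in both female ones, and of the lymphocyte markers Cd3g in both male ones (-0.75 and -0.59). The part of these cells in the chaperone ratios was not tested.

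Hspa8 encodes the constitutive cytosolic Hsp70 (Hsc70), which folds new proteins, uncoats clathrin vesicles and carries substrates to chaperone-mediated autophagy. Its log2 ratios were -1.4 and -1.27 on the M8/M3 arrays, -0.65 and -0.93 on the M8/M4 arrays, -0.64 and -0.83 on the F8/F3 arrays and -0.12 and -0.07 on the F8/F4 arrays. The decrease from 3 wk was thus present on every array of both sexes, while the arrays from 4 wk were lower in male than in female liver. In limma, Hspa8 was down regulated to 0.395 of its 3 wk level in male liver (log2 -1.34 ± 0.08 SE, n = 2 arrays, adjusted p = 0.000277) and to 0.601 in female liver (adjusted p = 0.00221). M8/M4 gave a ratio of 0.577 (adjusted p = 0.00166), and F8/F4 gave 0.938, which was not called (95% interval of the log2 ratio -0.29 to 0.11).

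The level of Hspa8 in each pool, for its brightest probe, was obtained by least squares from the 7 ratios of a replicate and centred on 0. It was 0.61 and 0.49 in the M3 pools and 0.50 and 0.58 in the F3 pools, which overlapped. The M4 pools (-0.06 and 0.14), the F4 pools (-0.11 and -0.17) and the F8 pools (-0.19 and -0.24) followed without overlap, although M4/F4 and F8/F4 were not called. This order held for the brightest probe only. With each of the other Hspa8 probes M4 overlapped F4 and F4 overlapped F8, and with one of them M3 (0.58 and 0.64) lay above F3 (0.53 and 0.42). The M8 pools (-0.74 and -0.79) were lowest and lay apart from all others.

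At 8 wk Hspa8 was lower in male than in female liver, with log2 ratios of -0.53 and -0.55 in M8/F8 (adjusted p = 0.00723). The ratio of 0.688 did not pass the 1.5-fold criterion for this probe, the brightest of 3. The 2 other Hspa8 probes passed it in M8/F8, with log2 ratios of -0.71 (adjusted p = 0.000955) and -0.70 (adjusted p = 0.0033). In M3/F3 the 3 probes gave -0.02, 0.00 and 0.15, none of which was called.

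**Figure D2:**
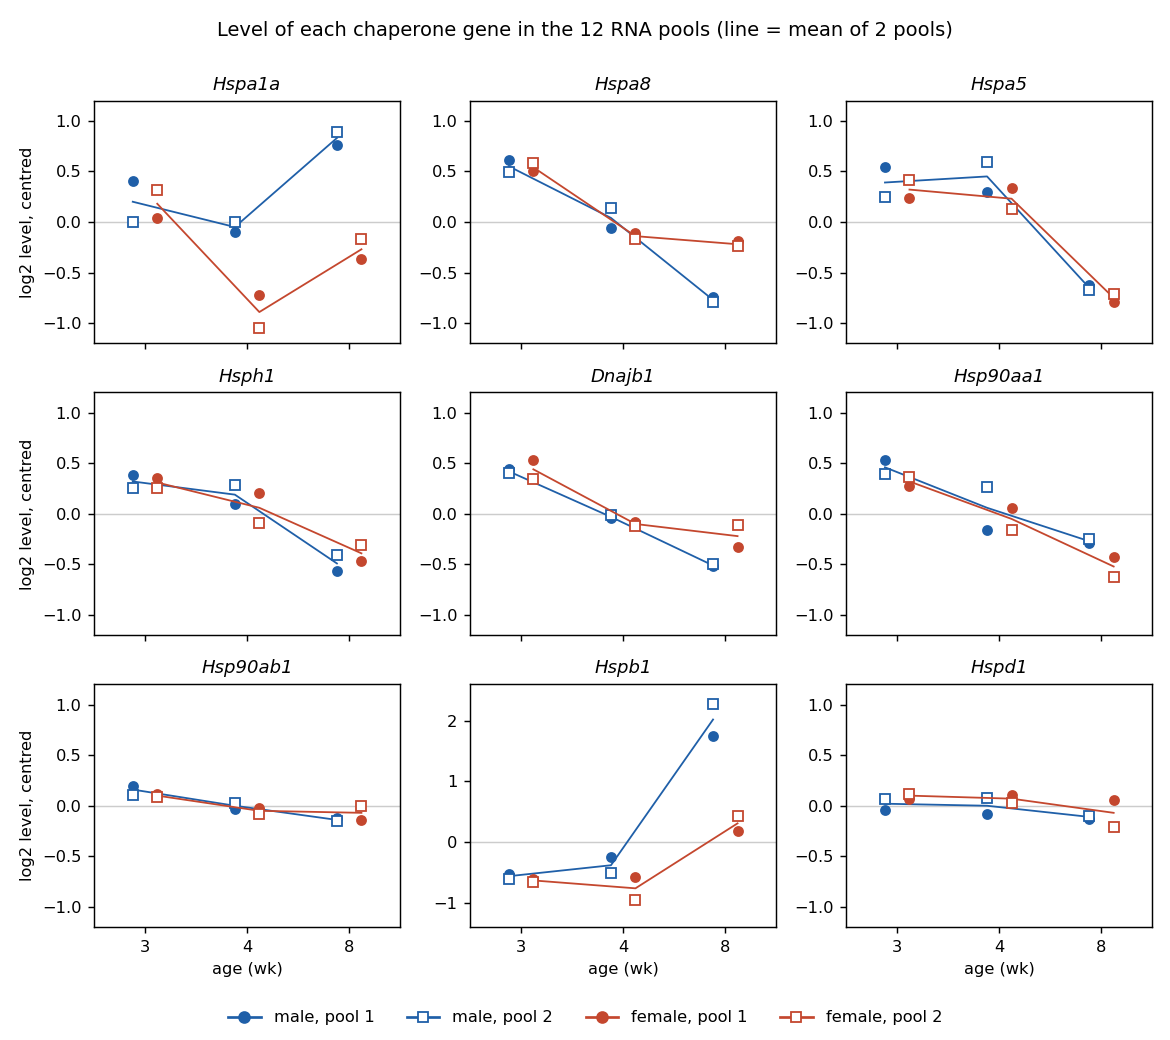
Level of each chaperone gene in the 12 RNA pools on the log2 scale, centred on the mean of the pools, against age in wk, with the 3 ages evenly spaced; circles and squares are the 2 pools of a group, lines join their means, and male liver is blue and female liver red, with a wider axis for Hspb1. Hspa8 in 8 wk male liver (-0.74 and -0.79) and Hspb1 in 8 wk male liver (1.75 and 2.28) stand apart from every other group.

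The difference in the age change of Hspa8 between the sexes passed the threshold, but not in every alternative fit. It was tested within the same fit as the male minus the female age change, over all probes. M8/M3 minus F8/F3 was -0.77 and -0.44 in the 2 replicates (log2 -0.60 ± 0.12 SE, adjusted p = 0.043), and 1.76% of all genes were called lower in this contrast. M8/M4 minus F8/F4 was -0.54 and -0.86 (log2 -0.70 ± 0.12 SE, adjusted p = 0.0467), with 0.593% of genes called lower. The other probes gave -0.66 and -0.81 from 3 wk and -0.77 and -0.82 from 4 wk, with adjusted p between 0.0139 and 0.0341. For the brightest probe both calls were lost with the replicate number as a block (adjusted p = 0.0612 and 0.0683), with the slide as a block (0.0704 and 0.0911) and when the covariance took in the pools that arrays share (0.117 and 0.156). Error-weighted averages lost both as well, and a fit of 6 group means lost the one from 3 wk (log2 -0.55). Leaving out single arrays moved the adjusted p to between 0.0454 and 0.207 from 3 wk, where the call was lost without 12 of the 14 arrays in turn, and between 0.0592 and 0.194 from 4 wk, where the call was lost without any 1 of the 14 arrays, at most with M8/M3 replicate 1 and M8/M4 replicate 2 left out.

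As M8/M3 and F8/F3 were scanned on different days, the same quantity was taken from the sex ratios, all of the first day. M8/F8 minus M3/F3 was -0.52 for Hspa8 (adjusted p = 0.0656) and M8/F8 minus M4/F4 was -0.74 (adjusted p = 0.046). The 2 other probes gave -0.70 and -0.85 for M8/F8 minus M3/F3 (adjusted p = 0.0113 and 0.0174).

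Hspa5 encodes BiP, the Hsp70 of the ER and a standard marker of the unfolded protein response. It was down regulated in all 4 age comparisons by closely similar amounts. In male liver its log2 ratios were -1.22 and -0.93 from 3 wk and -0.88 and -1.23 from 4 wk, and in female liver they were -0.97 and -1.12 from 3 wk and -1.17 and -0.88 from 4 wk. The 8 arrays lay between -1.23 and -0.88 and did not separate by sex or by the younger age. In limma the ratios, in the same order, were 0.475, 0.481, 0.484 and 0.491 (n = 2 arrays each), with adjusted p of 0.00676, 0.00718, 0.00744 and 0.00809.

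The pools of Hspa5 fell into young and adult levels. All 8 pools of 3 and 4 wk lay between 0.13 and 0.59 and their groups overlapped, whereas the M8 pools were at -0.62 and -0.67 and the F8 pools at -0.79 and -0.71. The male minus female age change was -0.03 from 3 wk (95% interval -0.58 to 0.53) and -0.03 from 4 wk (-0.59 to 0.52), so the interval allows a difference of up to 0.59 on the log2 scale. Each of the 4 calls was lost without 1 of its own arrays, namely M8/M3 replicate 1 (adjusted p = 0.0765), M8/M4 replicate 2 (0.0829), F8/F3 replicate 2 (0.0787) and F8/F4 replicate 1 (0.0894), with log2 ratios of -0.92, -0.84, -0.94 and -0.87.

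The promoter of Hspa5 is shown for its ER stress response element, a binding site of the unfolded protein response. It was taken from RefSeq (GRCm38.p6), as the 250 bases before the start site, chr2:34771840-34772089 on the + strand, and capitals mark the fixed bases of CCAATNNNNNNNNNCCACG.
Hspa5: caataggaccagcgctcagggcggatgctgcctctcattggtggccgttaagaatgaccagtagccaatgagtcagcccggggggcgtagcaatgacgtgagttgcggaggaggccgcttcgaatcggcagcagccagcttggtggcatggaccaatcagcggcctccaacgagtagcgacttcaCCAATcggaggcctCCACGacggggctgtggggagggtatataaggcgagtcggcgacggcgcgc
The element lies at -65 to -47 from the start site. It was searched on both strands, and 0.113% of the 32851 RefSeq promoter windows of the same length hold it. Of the 7 chaperone genes with a promoter in the table, Hspa5 was the only one with a match. RefSeq windows were not found for Hspa8, Hsp90aa1 and Hsp90ab1.

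Of the other ER chaperones, a list of 15 genes, 4 were called lower and 1 higher in M8/M3, and 6 were called lower and 1 higher in each of the other 3 age comparisons. In either direction, error-weighted averages called 4 in M8/M3 and 4 in M8/M4, where limma called 5 and 7, and 7 in each female age comparison, as limma did. Of all genes 10.0% were called lower in M8/M3 and 3.73% to 6.64% in the others, and 2.28% to 7.80% were called higher over the 4. Their median log2 ratio lay between -0.45 and -0.40 in the 4 comparisons, beside 0.01 to 0.02 over all genes. Creld2, a BiP partner that the ER stress response induces, had log2 ratios of -1.14 and -1.38 from 3 and 4 wk in male liver and -1.27 and -1.17 in female liver, all called (adjusted p = 0.00664 to 0.0137).

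Dnajb9, a J protein that serves BiP, had log2 ratios of -1.13, -1.42, -1.34 and -1.17 in the same order (adjusted p = 0.00613 to 0.0148). Sdf2l1, which works with BiP and J proteins in the ER lumen, had -0.85, -1.05, -1.23 and -1.14 (adjusted p = 0.00701 to 0.029). Hspa13, an ER-associated Hsp70 relative, was called lower in M8/M4 (-0.70), F8/F3 (-0.72) and F8/F4 (-0.86), and its M8/M3 ratio of -0.45 was not called. Creld2, Dnajb9 and Sdf2l1 were thus down regulated from both young ages in both sexes, as Hspa5 was.

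Not all of the list followed them. Hsp90b1, Pdia3, P4hb, Calr, Canx, Dnajc3 and Hyou1 were called in no age comparison, with log2 ratios from -0.66 (Hsp90b1 in M8/M3) to -0.02 (Canx in F8/F4). The probe named for Dnajb11, another J protein of BiP, was called higher. Its log2 ratios were 3.73 and 2.98 from 3 and 4 wk in male and 2.6 and 2.05 in female liver (adjusted p = 0.000178 to 0.00125). It was also called lower in M3/F3 (-0.83, adjusted p = 0.0385) and higher in M8/F8 (0.95, adjusted p = 0.0232), and error-weighted averages kept neither of these calls. The probe was dim, with a mean signal of 108, and whether it measures the Dnajb11 transcript was not tested.

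Hspa1a encodes the stress-inducible cytosolic Hsp70, whose level in unstressed liver is low. Its signal lay between 25.6 and 151, well above background in all 28 channels. Hspa1a and Hspa1b are near-identical neighbouring genes, so the probe named for Hspa1a may also record Hspa1b. The log2 ratios were 0.23 and -0.42 in M3/F3, 0.51 and 1.11 in M4/F4 and 1.36 and 1.11 in M8/F8. Male liver had the higher level on all 4 arrays of 4 and 8 wk, but not on both arrays of 3 wk.

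Hspa1a was higher in male liver by 2.36-fold at 8 wk (log2 1.24 ± 0.20 SE, n = 2 arrays, adjusted p = 0.00773 in limma) and by 1.75-fold at 4 wk (adjusted p = 0.0378). The age ratios in male liver were 0.24 and 0.78 from 3 wk and 0.76 and 0.94 from 4 wk, and in female liver -0.29 and -0.38 from 3 wk and 0.46 and 0.82 from 4 wk. M8/M4 was called (1.80-fold, adjusted p = 0.0319), and the others were not (adjusted p = 0.155, 0.365 and 0.0829 in M8/M3, F8/F3 and F8/F4). The M8 pools were highest (0.76 and 0.89) and the F4 pools lowest (-0.72 and -1.05).

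The ratios of Hspa1a did not close well around the comparisons. M3/F3 and M8/M3 together should equal F8/F3 and M8/F8 together, and they differed by -0.61 and -0.38 in the 2 replicates, where the median size of such differences over all 9 genes was 0.07 (36 values). Around the 4 wk comparisons the differences of Hspa1a were -0.55 and 0.12. Those of Hspb1 were -0.29 and -0.35 around 3 wk and -0.22 and -0.19 around 4 wk, also above the median size. With normexp background correction and loess in place of the processed signals, the Hspa1a log2 ratios shrank to 0.37 in M4/F4 (adjusted p = 0.0714) and 0.58 in M8/M4 (adjusted p = 0.0106, short of 1.5-fold). Both calls were lost. The M8/F8 ratio shrank to 0.74 and was still called. The M4/F4 call was lost with the replicate block (adjusted p = 0.0563) and without M4/F4 replicate 2 (log2 0.36, adjusted p = 0.312), and without 10 other arrays (0.057 to 0.0718). The M8/M4 call was lost with the slide as a block (adjusted p = 0.0737) and when the covariance took in the pools that arrays share (0.0989) and without 9 of the 14 arrays in turn (0.0505 to 0.172), and the M8/F8 call without replicate 1 (0.0641) or replicate 2 (0.0539) of M8/F8. M8/M3 minus F8/F3 was 0.84 (adjusted p = 0.169), while M8/F8 minus M3/F3 on the first scan day was 1.34 (adjusted p = 0.049) and M8/F8 minus M4/F4 was 0.43, with 0.85 and 0.01 in the 2 replicates (adjusted p = 0.616).

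The promoter of Hspa1a is shown because it is the classical target of HSF1 and because it is nearly the same as that of the unmeasured Hspa1b, with 247 of 250 bases equal. The sequence is chr17:34972157-34972406 on the - strand (GRCm38.p6), and capitals mark a pair of inverted heat shock units, GAANNTTC.
Hspa1a: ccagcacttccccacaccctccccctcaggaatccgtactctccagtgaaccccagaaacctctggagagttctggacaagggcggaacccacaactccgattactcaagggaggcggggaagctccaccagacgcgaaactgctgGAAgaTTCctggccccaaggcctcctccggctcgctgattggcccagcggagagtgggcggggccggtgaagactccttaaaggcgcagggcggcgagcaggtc
Heat shock factors bind repeats of inverted GAA units, of which GAANNTTC and TTCNNGAA are the shortest pairs. Both read the same on either strand, and they can overlap each other. At least 1 of them was found in 12.8% of all promoter windows (GAANNTTC in 6.69% and TTCNNGAA in 7.17%). Of the 7 chaperone genes with a promoter, 5 had a match in at least 1 window, the near-identical Hspa1a and Hspa1b among them. The 7 genes have 10 windows, so this count of genes is not on the same footing as the share of windows.

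Hsph1 encodes Hsp105, a member of the Hsp110 family that exchanges nucleotides on Hsp70. In male liver the log2 ratios were -0.94 and -0.69 from 3 wk and -0.67 and -0.69 from 4 wk, and in female liver -0.82 and -0.55 from 3 wk and -0.67 and -0.23 from 4 wk. It was down regulated to 0.569 in M8/M3 (adjusted p = 0.0113), 0.623 in M8/M4 (0.0219) and 0.621 in F8/F3 (0.0212), while 0.733 in F8/F4 was not called (0.0931). Its second probe gave -0.85, -0.74 and -0.86 in the called comparisons and -0.50 in F8/F4, with the same calls. All 8 pools of 3 and 4 wk lay above the 4 adult pools, and M8 (-0.56 and -0.41) overlapped F8 (-0.47 and -0.31).

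Every call of Hsph1 was lost without replicate 1 and also without replicate 2 of its comparison, with adjusted p of 0.111 and 0.054 in M8/M3, 0.105 and 0.162 in M8/M4 and 0.180 and 0.0786 in F8/F3, in that order. M8/M3 minus F8/F3 was -0.12 (95% interval -0.61 to 0.36). The Hsph1 promoter holds 1 tail-to-tail pair (TTCNNGAA, in capitals) at -33 to -26 from the start site, in chr5:149636337-149636586 on the - strand.
Hsph1: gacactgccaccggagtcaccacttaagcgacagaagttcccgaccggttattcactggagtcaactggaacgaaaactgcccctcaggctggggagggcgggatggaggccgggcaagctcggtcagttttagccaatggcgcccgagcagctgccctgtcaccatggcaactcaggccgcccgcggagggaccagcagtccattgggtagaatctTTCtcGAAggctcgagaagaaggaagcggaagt

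Dnajb1 encodes Hsp40, the J protein that works with cytosolic Hsp70. Its log2 ratios were -0.96 and -0.90 from 3 wk and -0.48 and -0.48 from 4 wk in male liver, and -0.87 and -0.45 from 3 wk and -0.25 and 0.01 from 4 wk in female liver. As for Hspa8, the decrease was deepest from 3 wk in male liver and smallest from 4 wk in female liver. It was down regulated to 0.525 in M8/M3 (adjusted p = 0.00155) and to 0.632 in F8/F3 (0.00567), and the latter call was lost without F8/F3 replicate 1 (log2 -0.47, adjusted p = 0.0538) and with error-weighted averages (log2 -0.65). M8/M4 had an adjusted p of 0.0193 but a ratio of 0.717, short of 1.5-fold.

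The levels of Dnajb1 in the 3 wk pools (0.34 to 0.53) lay above those of M4 (-0.04 and -0.01) and F4 (-0.08 and -0.12), and F4 overlapped F8 (-0.33 and -0.11). The M8 pools (-0.52 and -0.50) were lowest. M8/M4 minus F8/F4 was -0.36 (adjusted p = 0.328) and M8/F8 was -0.29 (adjusted p = 0.109), neither of which was called. No heat shock pair of these letters was found in its 2 promoter windows.

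Hsp90aa1 and Hsp90ab1 encode the inducible and the constitutive cytosolic Hsp90. Hsp90aa1 had log2 ratios of -0.85 and -0.61 in M8/M3 and -0.69 and -1.0 in F8/F3. It was down regulated to 0.604 (adjusted p = 0.0218) in male and to 0.558 (adjusted p = 0.0125) in female liver from 3 wk. From 4 wk the ratios were -0.11 and -0.54 in M8/M4 and -0.51 and -0.44 in F8/F4, and neither comparison was called (adjusted p = 0.238 and 0.0936). The M8/M3 call was lost without M8/M3 replicate 1 (log2 -0.50, adjusted p = 0.208) and the F8/F3 call without replicate 1 (0.0644) or replicate 2 (0.117) of F8/F3.

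Hsp90ab1 changed less. In M8/M3 its log2 ratios were -0.34 and -0.26 (adjusted p = 0.0234), a ratio of 0.812 that is short of 1.5-fold, and the fits of its other comparisons lay between -0.17 and 0.06. The 12 pools of Hsp90ab1 spanned 0.36 on the log2 scale, those of Hsp90aa1 1.15.

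Hspd1 encodes Hsp60, the folding chamber of the mitochondrial matrix. Its fits lay between -0.19 and -0.05 in all 7 comparisons, and none was called. The lowest was F8/F3, with -0.04 and -0.35 on the 2 arrays (95% interval -0.32 to -0.07, adjusted p = 0.0575), so the interval reaches to a decrease of 0.32. The 12 pools spanned 0.33. The Hspd1 promoter is shown because it has the longest run of heat shock units among these genes, TTCNNGAA, GAANNTTC and TTCNNGAA in overlap, although the gene was not called. It is chr1:55087933-55088182 on the - strand, with the units in capitals at -144 to -127 from the start site.
Hspd1: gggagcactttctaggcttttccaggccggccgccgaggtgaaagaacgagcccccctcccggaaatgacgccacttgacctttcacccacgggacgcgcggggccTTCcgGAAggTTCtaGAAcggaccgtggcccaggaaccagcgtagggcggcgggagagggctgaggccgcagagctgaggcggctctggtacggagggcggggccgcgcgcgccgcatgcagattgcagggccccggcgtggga
A second start site of Hspd1 has a window without a match.

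Of 10 other mitochondrial chaperones and proteases none was called in any of the 7 comparisons in limma or by error-weighted averages, although 6 had an unadjusted p below 0.05 in M8/M3 and 3 in F8/F3. From 3 wk to 8 wk their median log2 ratio was 0.18 in male and 0.01 in female liver. None of the 8 subunits of the cytosolic chaperonin CCT was called by either method, with medians of -0.26 in M8/M3, where 7 had an unadjusted p below 0.05, and -0.18 in F8/F3, where 5 had.

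Hspb1 encodes Hsp27 (Hsp25 in the mouse), a small heat shock protein that holds unfolded chains and binds actin. It moved against the 5 genes that fell, and in both age comparisons of male liver it had the largest change of the 9 genes. The log2 ratios in male liver were 2.21 and 2.81 from 3 wk and 1.97 and 2.77 from 4 wk, and those in female liver 0.86 and 1.17 from 3 wk and 0.80 and 1.41 from 4 wk. All 8 age arrays were above 0, and each of the 4 male arrays was above each of the 4 female arrays. Hspb1 was up regulated 5.70-fold from 3 wk in male liver (log2 2.51 ± 0.20 SE, n = 2 arrays, adjusted p = 0.00054 in limma) and 5.16-fold from 4 wk (adjusted p = 0.000669). In female liver the increases were 2.02-fold (adjusted p = 0.0161) and 2.15-fold (adjusted p = 0.0115).

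No difference in Hspb1 between male and female liver was called at 3 or 4 wk. M3/F3 gave 0.02 and -0.03, with a 95% interval of -0.47 to 0.46, and M4/F4 gave 0.28 and 0.41 (log2 0.34, adjusted p = 0.343). M8/F8 gave 1.66 and 1.96, a 3.50-fold higher level in male liver (log2 1.81 ± 0.20 SE, adjusted p = 0.00174). The M8 pools were at 1.75 and 2.28 and the F8 pools at 0.19 and 0.43, both separate from all younger pools, which ranged from -0.95 to -0.25.

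The increase of Hspb1 was larger in male liver. M8/M3 minus F8/F3 was 1.35 and 1.65 in the 2 replicates (log2 1.5 ± 0.28 SE, adjusted p = 0.0335), where 1.51% of all genes were called higher. M8/M4 minus F8/F4 was 1.16 and 1.36 (log2 1.26 ± 0.28 SE, adjusted p = 0.0957) and was not called, although it was with the replicate number (adjusted p = 0.018) or the slide (0.0439) as a block, and not when the covariance took in the shared pools (0.147). The change of the sex ratio on the first scan day, M8/F8 minus M3/F3, was 1.64 and 1.99 (log2 1.82, adjusted p = 0.0181), and M8/F8 minus M4/F4 was 1.38 and 1.56 (log2 1.47, adjusted p = 0.0716) and was not called. The call from 3 wk was lost without the dye term (adjusted p = 0.0565) and without 10 of the 14 arrays, each left out in turn, with adjusted p from 0.0345 to 0.156 over the 14. The highest came without M8/M3 replicate 2. The female age calls were lost without F8/F3 replicate 1 (0.104), F8/F3 replicate 2 (0.114) or F8/F4 replicate 2 (0.118), and that of F8/F4 with error-weighted averages (log2 1.07).

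**Figure D3:**
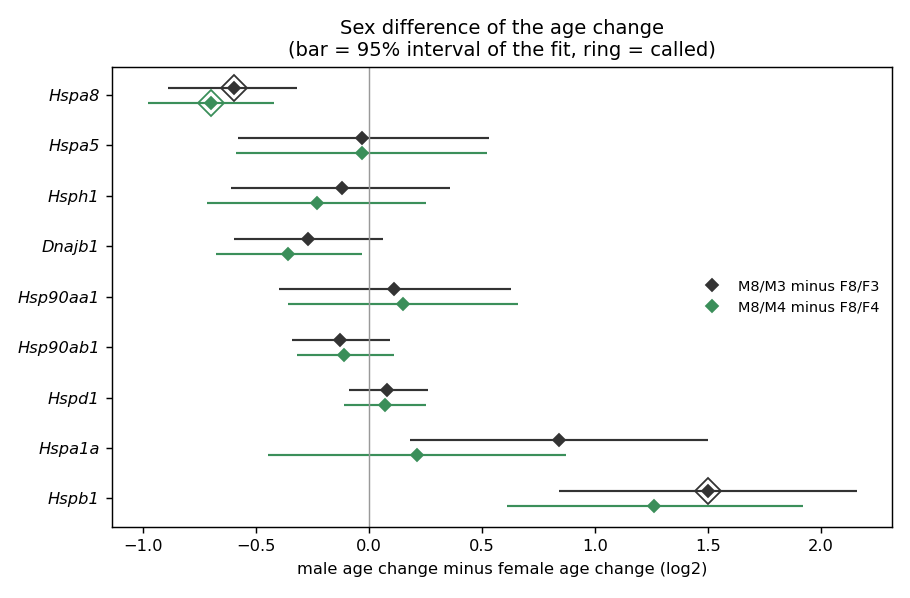
Male minus female age change of each chaperone gene on the log2 scale, from 3 wk (black) and from 4 wk (green); diamonds are the fitted difference, bars its 95% interval and open outlines mark a call at an adjusted p below 0.05 and over 1.5-fold. Hspb1 lies at 1.5 and 1.26, Hspa8 at -0.60 and -0.70, and the intervals of Hspa5, Hsph1, Hsp90aa1, Hsp90ab1 and Hspd1 include 0.

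The Hspb1 promoter is shown for its 2 head-to-head pairs of heat shock units, GAANNTTC, which lie at -117 to -110 and -97 to -90 from the start site. It is chr5:135887669-135887918 on the + strand (GRCm38.p6).
Hspb1: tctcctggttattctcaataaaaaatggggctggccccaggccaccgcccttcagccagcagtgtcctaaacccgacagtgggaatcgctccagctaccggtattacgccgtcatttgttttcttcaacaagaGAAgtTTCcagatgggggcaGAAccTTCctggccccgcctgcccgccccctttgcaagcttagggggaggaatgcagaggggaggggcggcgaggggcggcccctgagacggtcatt
The head-to-head pair was thus found at Hspb1, which was up regulated, at Hspa1a, which was called higher in 3 of the 7 comparisons, and at Hspd1, which was not called, and the tail-to-tail pair at Hsph1, which was down regulated, and at Hspd1.

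Other small heat shock proteins were mixed. Of 7 tested, 2 were called higher and 1 lower in both male age comparisons, 1 higher and 1 lower in both female ones, and 2 higher in M8/F8. The shares of all genes were 2.28% to 7.80% called higher and 3.73% to 10.0% called lower over the age comparisons, and 2.66% called higher in M8/F8. Cryaa, known as a lens crystallin, followed Hspb1 in direction, with log2 ratios of 4.49 in M8/M3 (adjusted p = 0.000178), 1.92 in F8/F3 (adjusted p = 0.00317) and 2.48 in M8/F8 (adjusted p = 0.0012), at a mean signal of 182. Hspb6 (Hsp20) was higher in M8/M3 (0.86), M8/M4 (0.74) and M8/F8 (0.76), with adjusted p of 0.00343 to 0.00605, and its female age ratios of 0.14 and 0.01 were not called. Hspb2, at a dim mean signal of 37.5, was called lower in all 4 age comparisons, with log2 ratios of -0.81 to -0.59.

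Markers of other cells were also called in the sex comparison at 8 wk. Of 6 Kupffer cell markers 3 (Clec4f, Marco and Adgre1) were called lower in male liver, and the median of the 6 was a log2 ratio of -0.58. Their summed signal was 18700 to 27000 in M8 and 30100 to 44500 in F8, and every marker was well above background in at least 1 channel of both groups. The erythroid gene Alas2 was called higher in male liver (M8/F8 1.89), while Klf1 (-0.63), Epor (-0.26) and Slc4a1 (-0.02) were not called, and the median erythroid log2 ratio was -0.14. The summed erythroid signal, 9200 to 13200 in M8 and 2600 to 4180 in F8, was mostly that of the Alas2 probe, with a mean signal of 4000, and Epb42 was well above background in no 8 wk channel. The lymphocyte marker Cd3g (-0.86), the dividing cell marker Top2a (-1.12) and the hepatocyte marker Ahsg (-0.79) were called lower in male liver. In M4/F4, where Hspa1a was called, Alas2 (0.78) and the bile duct marker Spp1 (0.92) were called higher, and Marco (-0.69) and the neutrophil markers S100a8 (-0.77) and S100a9 (-0.94) lower. The part of these cells in the M8/F8 ratios of Hspb1, Hspa1a and Hspa8 was not tested.

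Between 3 and 4 wk no member was called. The change was taken as M8/M3 minus M8/M4 in male and F8/F3 minus F8/F4 in female liver, and 0.300% and 0.0959% of all genes were called in either direction. The shared 8 wk pools cancel in the difference, but the SE of this fit takes the arrays as independent. The male contrast joins arrays of both scan days, and the female one only arrays of the second. At an unadjusted p below 0.05 in limma there were 2 genes in male liver (Hspa8 and Dnajb1) and 3 in female liver (Hspa1a, Hspa8 and Dnajb1). Hspa8 had -0.55 (adjusted p = 0.119) in male and -0.64 (adjusted p = 0.131) in female liver, and Dnajb1 had -0.45 and -0.54 (adjusted p = 0.23 and 0.239). When the covariance took in the shared pools, the adjusted p in male and female liver was 0.066 and 0.0667 for Hspa8 and 0.0534 and 0.0529 for Dnajb1, still not called. Hspa5 had -0.02 in both sexes, with 95% intervals of -0.57 to 0.54 and -0.58 to 0.53. Hspa1a had -0.34 in male (adjusted p = 0.718) and -0.97 in female liver, with -0.75 and -1.2 in the 2 replicates (adjusted p = 0.284). In female liver a fit of 6 group means instead of the 7 comparisons called Hspa1a (-1.07, adjusted p = 0.0358) and Hspa8 (-0.68, adjusted p = 0.00612), and error-weighted averages called Hspa1a.

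Partners of the cytosolic chaperones were described by lists of genes. Of 15 other known HSF1 targets, 3 were called lower in M8/M3, 1 in M8/M4 and, in female liver, 2 in F8/F3, and none was called higher in any comparison. The shares of all genes called lower were 10.0%, 6.37% and 6.64% in the same order. From 3 wk to 8 wk their median log2 ratio was -0.33 in male and -0.22 in female liver. Bag3, a nucleotide exchange factor and HSF1 target, had -1.12 and -0.97 in M8/M3 (adjusted p = 0.000697) and -0.80 and -0.93 in F8/F3 (adjusted p = 0.00135), while F8/F4 gave -0.15 and 0.00. Its M4/F4 ratio of 0.57 had an adjusted p of 0.0066 and was short of 1.5-fold. Chordc1, a partner of Hsp90, was lower in M8/M3 (-0.73), M8/M4 (-0.68) and F8/F3 (-0.75), and the J protein Dnaja1 in M8/M3 (-0.61, adjusted p = 0.00156).

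None of the 4 genes for heat shock factors and their binding protein was called in any comparison in limma or by error-weighted averages, and at most 2 had an unadjusted p below 0.05 in a comparison. Some passed the adjusted p but were short of 1.5-fold. Hsf1 had log2 ratios of -0.30 in F8/F3 (adjusted p = 0.00212) and 0.21 in M8/F8 (adjusted p = 0.00848), with -0.05 in M8/M3 (adjusted p = 0.482). Hsf4, at a mean signal of 61.4, had 0.50 in M8/M3 (adjusted p = 0.0188), 0.39 in M8/M4 (0.0447) and 0.42 in F8/F4 (0.0347).

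Of 16 cochaperones of Hsp90, 2 were called lower in both male age comparisons and 1 in F8/F3, where 10.0% (M8/M3), 6.37% (M8/M4) and 6.64% (F8/F3) of all genes were. Fkbp5, which tunes the glucocorticoid receptor, was lower in male liver at 8 wk (M8/F8 -1.21 and -0.94, adjusted p = 0.00304) and fell in male liver (-1.05 in M8/M3 and -0.82 in M8/M4), with 0.08 in F8/F3 and -0.25 in F8/F4. Of 10 nucleotide exchange factors, Grpel2, which serves mitochondrial Hsp70, was called higher in M8/M3 (0.62), F8/F3 (0.91) and F8/F4 (0.78), and Bag2 was called lower in M8/M4 (-0.80, adjusted p = 0.0447). Of 18 J proteins tested, the probe of Dnajb11 was called higher in the 4 age comparisons, Dnajb9 lower in the 4, and Dnaja1 lower in M8/M3. In M8/M3 this was 1 of 18 higher and 2 lower, where 7.80% and 10.0% of all genes were. In the Hsp70 and Hsp110 family without the members, Hspa13 was the single gene called. Over the age comparisons 2.28% to 7.80% of all genes were called higher and 3.73% to 10.0% lower, also beside the nucleotide exchange factors.

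**Figure D4:**
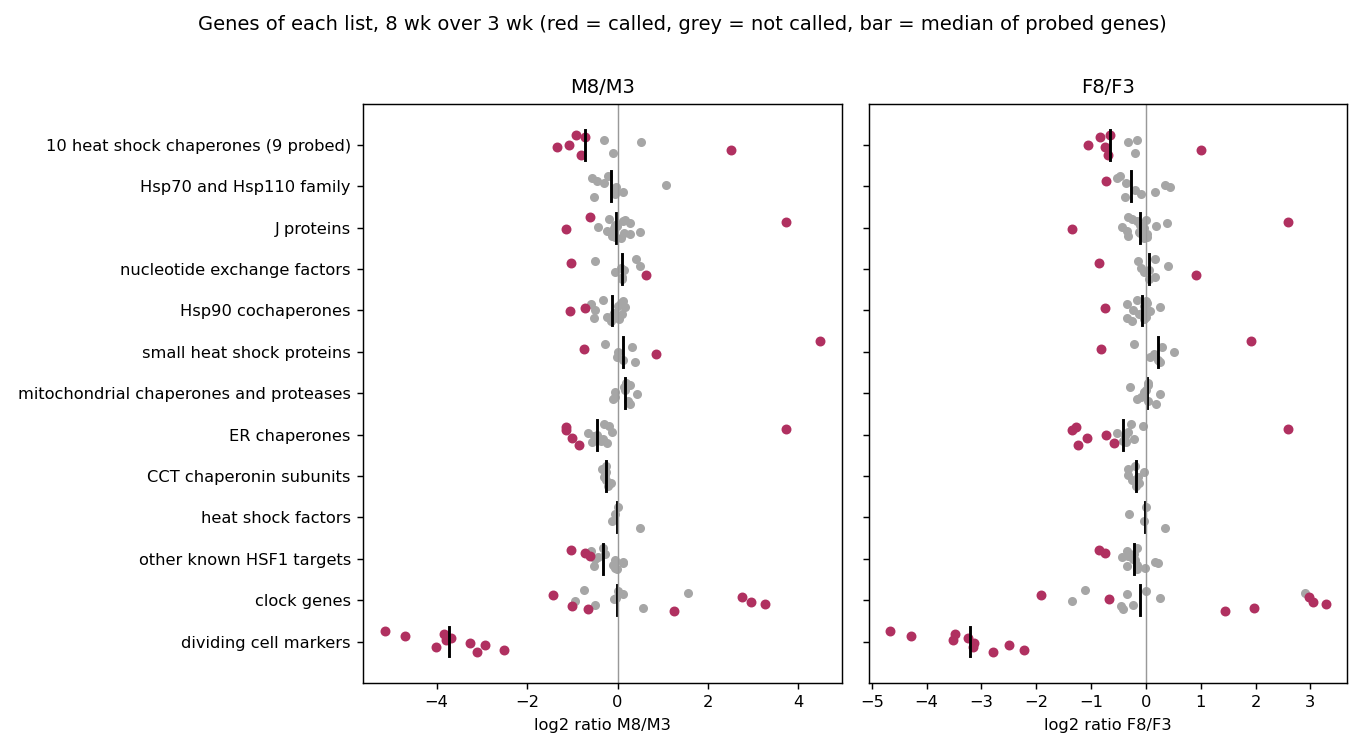
Log2 ratio of the genes of each list in M8/M3 (left) and F8/F3 (right), 8 wk over 3 wk; each point is a gene, called genes are red and others grey, and a black bar is the median of the genes with a probe. The ER chaperones have 4 genes called lower in male liver (M8/M3) and 6 in female liver (F8/F3), and the medians of the dividing cell markers are -3.74 and -3.21.

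Some genes that follow the time of day were called with age. Of 15 clock genes tested, 4 were called higher and 3 lower in M8/M3, where 7.80% and 10.0% of all genes were, and 5 higher and 2 lower in F8/F3, against 5.08% and 6.64%. Nr1d2 (Rev-erb beta) had log2 ratios of 3.26 and 2.05 from 3 and 4 wk in male liver and 3.28 and 2.09 in female liver, and in the same order Nr1d1 (Rev-erb alpha) had 2.96, 2.40, 3.04 and 2.38. Dbp, an output gene of the clock, had 2.75, 2.90, 2.98 and 2.96, and Npas2, on the positive arm of the clock, was lower in M8/M4 (-1.66) and F8/F4 (-2.09). Of 2 RNA-binding proteins that mild cold induces, Cirbp was higher in M8/M3 (1.39), M8/M4 (0.81) and F8/F3 (1.02), while Rbm3 was called in no comparison, with log2 ratios of -0.23 and -0.05 from 3 and 4 wk in male and -0.22 and -0.05 in female liver.

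Immediate early genes differed in direction: in M8/M3 3 of 11 were called higher (Zfp36 at 1.08, Nr4a1 at 0.93 and Dusp1) and 2 lower (Atf3 at -1.27 and Btg2). Of all genes 7.80% were called higher and 10.0% lower there. Of 12 tested, 3 were called higher and 1 lower in M8/M4 (4.42% and 6.37% of all genes), 0 and 1 in F8/F3 (5.08% and 6.64%) and 1 and 1 in F8/F4 (2.28% and 3.73%). Egr1 was called lower in M4/F4 (-1.30). The hour at which mice were killed is not given in the sources used here. The part of these genes, or of the hour, in the chaperone ratios was not tested.

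The genes most like Hspa8 over the 12 pools, among 1882 genes that were well above background in all channels and spanned at least 1 on the log2 scale, were Mbnl3 (Pearson r = 0.970), Pold1 (0.966), Vcam1 (0.966), Panx1 (0.965) and Msln (0.964). The M8/M3 log2 ratio of these 5 genes was between -1.82 and -1.14 and that of M8/F8 between -0.62 and -0.29, beside -1.34 and -0.54 for Hspa8. Since Hspa1b was not measured, the genes most like Hspb1 were taken in its place, a choice made after the values were seen. These were Esrp1 (r = 0.989), Ipo13 (0.987), Aanat (0.986), Elk4 (0.982) and Cyp46a1 (0.980), with M8/M3 log2 ratios of 1.30 to 2.26 and M8/F8 log2 ratios of 0.76 to 1.33. The correlations are descriptions over pools that share arrays.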

How the data were processed

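Liver RNA pools were compared on 14 two-colour Agilent arrays. The authors obtained intensities with Agilent Feature Extraction 10.7.1.1, which subtracts background and applies linear and LOWESS dye normalization within each array, and deposited processed signal intensities and the log10 ratio of red over green for each spot. The software's flags for signal well above background and for outlier spots were deposited with them, and non-uniform spots were left out (0 to 10 per array). The deposited value table, also in log10 ratios, was identical to the scanner values (largest difference 0).

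Ratios were converted to log2, turned by the labelled dyes, and averaged over the spots of a probe. The methods give replicate one the opposite dyes, and in the sex comparisons Y-linked genes and Xist fit the labels. In the age comparisons both channels are of one sex, so these genes cannot check the dyes there. Of 39429 probes, 26055 were named through RefSeq accessions, giving 19751 genes, and a gene was represented by its brightest probe. The model in limma 3.58.1 (R 4.3.3, data.table version 1.17.8) had 7 coefficients and a dye term for each probe, with Benjamini-Hochberg adjustment over all probes and comparisons, and within each contrast. The procedure was tested on simulated data. Of each gene list up to 4 genes with the largest called change were named, with the 5 genes most like Hspa8 over the pools; other genes were named after their values were seen. The 10 genes and all lists were chosen with earlier results of these data known.

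Replicate numbers pair the arrays, since the series description has the same pools in all comparisons: in 10 pairs of comparisons that share a group, deviations of the replicates correlated at 0.152 to 0.663 in the direction this requires (12866 genes). The alternatives tried were normexp with loess, other centring, fits without the dye term, with group means, with the pools in the covariance, with the replicate or slide as a block, error-weighted averages, other calling criteria, all probes of a gene, and each array left out. Error-weighted averages were called at an unadjusted p below 1e-04 in place of the adjusted p. Of the erythroid markers, 1 is not reported here.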

Additional observations from a re-analysis of the deposited data

Results flagged for a closer look

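The age change of 2 chaperone genes passed the threshold in a test of the difference between male and female liver, and neither gene kept its call under every alternative. For Hspb1, M8/M3 minus F8/F3 was 1.5 on the log2 scale, since the increase from 3 wk was larger in male liver. For Hspa8, M8/M3 minus F8/F3 was -0.60 and M8/M4 minus F8/F4 was -0.70, since the decrease was larger in male liver. Both Hspa8 calls were lost with the replicate block (adjusted p = 0.0612 and 0.0683), the slide block (0.0704 and 0.0911) and the shared pools in the covariance (0.117 and 0.156). They were also lost with error-weighted averages, which needed an unadjusted p below 1e-04. The call from 3 wk was lost without 12 of the 14 arrays, each left out in turn, and the call from 4 wk without any 1 of the 14 arrays. With 6 group means the call from 3 wk was lost by the fold criterion alone (log2 -0.55, adjusted p = 0.00102). The Hspb1 call was lost without the dye term (adjusted p = 0.0565) and without 10 of the 14 arrays, each left out in turn. Groups of 2 arrays are too small for a test of outlying samples.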

How the results depend on the processing

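None of the 25 called values changed direction under the alternatives run, and of them between 16 and 25 were kept under each alternative applied to all of them. The single call of M4/F4 was lost (count 0) with normexp and loess, the shared pools, error-weighted averages, adjustment within each comparison, the replicate block and the slide block. In F8/F4 error-weighted averages left 1 gene and in F8/F3 5. In M8/F8 Hspa8 became called lower with the mean of all probes of a gene (log2 -0.65, adjusted p = 0.000891) and without the fold threshold. In M8/M3 minus F8/F3 the count fell from 2 to 1 without the dye term, with the shared pools, error-weighted averages, the replicate block and the slide block, and, in an alternative chosen after seeing the data, with centring on probes well above background. In M8/M4 minus F8/F4 it was 2 with normexp and loess and with 6 group means, and 0 with the shared pools, error-weighted averages and centring on probes well above background. In F8/F3 minus F8/F4, 6 group means called 2 and error-weighted averages 1. Leaving out each array in turn gave counts of 0 to 0 in M3/F3, 0 to 1 in M4/F4, 1 to 2 in M8/F8, 3 to 6 in M8/M3, 2 to 5 in M8/M4, 2 to 6 in F8/F3 and 1 to 3 in F8/F4, and of 6 to 7 genes called in any comparison. The counts were 0 to 2 in M8/M3 minus F8/F3 and 0 to 0 in the other 3 contrasts. With the replicate block the adjusted p was 0.0563 for Hspa1a in M4/F4 and 0.0612 and 0.0683 for the Hspa8 contrasts, while Hspb1 became called in M8/M4 minus F8/F4 (0.018), and no other call changed. The cause of these changes was not tested. Pools varied 4.58 times as much as arrays of the same pools, and with 2 pools a group the p-values measure the spread between these pools and arrays, which share pools. Hspa1a had a low signal of 25.6 to 151, well above background in all 28 channels.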
